A study of Rattus norvegicus with 9 samples.

Results

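The genes described here make cholesterol and fatty acids or control that synthesis. These genes and the other lists below were chosen with earlier results of these data known. Their counts, set beside shares of all genes, are therefore a description and not a test. They were chosen by name from a list of 34 genes, and a gene counted as present when the array's probe table gave its symbol to at least 1 probe set. The table held 32 of the 34 genes on 46 of its 15866 probe sets other than controls, and Hmgcs1 and Stard4 were absent from it. Each of the 32 genes had at least 1 probe set that passed the filter on dim signals, and 40 of the 46 probe sets passed. Of the 32 genes 6 belong to the early sterol steps, 11 to the late sterol steps, 5 to the control of sterol synthesis, 5 to the supply and synthesis of fatty acids and 5 to their desaturation and elongation.

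Ureteric buds, the epithelial outgrowths that branch to form the collecting ducts of the kidney, were taken from Sprague-Dawley rat embryos at embryonic day 13 and cultured for 4 days in a gel made in equal parts of type 1 collagen and Matrigel low in growth factors. Every culture received FGF1 at 250 ng/ml and GDNF at 125 ng/ml. To this the BSN group added whole medium conditioned by mesenchymal cells of a metanephric line. The HRG group added human recombinant heregulin alpha at 500 ng/ml, which acts through ErbB receptors. The PTN group added pleiotrophin, which binds heparin and had been purified from the BSN medium, at about 3 µg/ml. RNA pooled from 3 buds made 1 sample, and each group had 3 samples, 1 array each. The series title names BSN and PTN as branching conditions and HRG as non-branching, whereas the description of the PTN samples calls their growth non-branching, so groups are named here by medium. No group received FGF1 and GDNF alone, so a rise in one medium cannot be told from a fall in another. The series design calls the samples biological replicates, and no source used here says whether they came from separate litters.

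Cells make sterols from acetyl-CoA in a long chain of steps: the early steps give isoprenoid units up to farnesyl diphosphate, and the late steps join these into squalene, close the rings and trim lanosterol to cholesterol. The transcription factors SREBP1 and SREBP2, encoded by Srebf1 and Srebf2, switch on the genes of both arms and of fatty acid synthesis. The protein Scap carries the SREBPs out of the endoplasmic reticulum to be cut and released, and Insig1 and Insig2 hold Scap back when sterols are plentiful. Insig1 is itself a target of the SREBPs. Growing epithelia need these lipids for membranes and for the modification of signalling proteins.

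Promoter sequences are shown for 5 members, 4 that carried 1 or more of the motifs searched and were higher in PTN than in BSN, and Acat2, which was also higher but carried none of the 3 motifs in capitals. They are the 250 bases before the RefSeq start in build GRCr8, written 5′ to 3′ on the gene's strand. Capitals mark, on either strand, CCAAT (the box bound by NF-Y, which read on the other strand is ATTGG), the palindrome CACGTG and the partial sterol response element TCACNCCA.
Insig1 (chr4:8057770-8058019, minus strand): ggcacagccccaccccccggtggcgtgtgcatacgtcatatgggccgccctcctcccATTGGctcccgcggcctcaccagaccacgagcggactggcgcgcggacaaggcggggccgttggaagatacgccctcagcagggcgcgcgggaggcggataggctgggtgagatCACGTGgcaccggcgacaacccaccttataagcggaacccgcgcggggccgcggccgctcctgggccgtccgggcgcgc
Fdps (chr2:176804817-176805066, minus strand): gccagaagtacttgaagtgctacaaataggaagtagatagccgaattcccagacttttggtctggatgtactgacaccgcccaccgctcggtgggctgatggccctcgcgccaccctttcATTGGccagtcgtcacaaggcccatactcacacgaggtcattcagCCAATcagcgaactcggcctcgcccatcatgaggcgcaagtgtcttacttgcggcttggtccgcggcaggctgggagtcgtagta
Hsd17b7 (chr13:84722755-84723004, minus strand): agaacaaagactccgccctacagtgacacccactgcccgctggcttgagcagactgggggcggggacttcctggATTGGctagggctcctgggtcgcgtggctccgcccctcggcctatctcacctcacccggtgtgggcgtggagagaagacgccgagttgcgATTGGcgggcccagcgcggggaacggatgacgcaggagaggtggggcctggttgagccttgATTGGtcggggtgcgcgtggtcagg
Msmo1 (chr16:29746863-29747112, plus strand): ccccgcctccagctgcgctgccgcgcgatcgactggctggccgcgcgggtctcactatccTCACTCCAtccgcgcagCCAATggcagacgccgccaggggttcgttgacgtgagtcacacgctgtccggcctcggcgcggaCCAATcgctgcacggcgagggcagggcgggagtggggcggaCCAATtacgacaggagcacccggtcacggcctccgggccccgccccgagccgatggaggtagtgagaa
Acat2 (chr1:50100590-50100839, plus strand): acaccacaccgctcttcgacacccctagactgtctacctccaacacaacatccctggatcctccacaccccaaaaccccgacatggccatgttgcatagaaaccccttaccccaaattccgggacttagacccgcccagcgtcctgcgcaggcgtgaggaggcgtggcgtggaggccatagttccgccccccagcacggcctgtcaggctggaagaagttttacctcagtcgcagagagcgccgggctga
Such windows were given for 26 of the 32 members, and each motif was searched on both strands of these 250 bases. CCAAT stood in 19 of the 26, or 73.1%, against 35.75% of the 6288 windows of all genes measured on these arrays and 34.02% of all 33469 windows. The Sp1 box GGGCGG stood in 21, or 80.8%, against 61.34% of measured genes. The longer sterol response element TCACNCCAC was in none of the 26 and in 1.03% of measured genes, and its shorter form TCACNCCA, which lacks the last C, was in Msmo1 and Srebf2, against 2.78%. CACGTG was in Insig1, Scap, Sc5d and Elovl5, against 8.49%, and the looser CANNTG, which includes CACGTG, was in 13 members, against 55.28%. A match says only that these letters are present in the window.

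Across the 32 genes, buds in pleiotrophin stood highest. PTN had the highest mean signal of the 3 media for 24 of the 32 genes, HRG for 6 and BSN for 2, whereas over all 7458 measured genes PTN was highest for 28.2%. The order BSN, then HRG, then PTN was found for 17 of the 32 genes and for 12.1% of all measured genes, and 9 of those 17 were late sterol enzymes. Scd, a desaturase, passed the filter through its PTN arrays alone, which favoured a highest mean there. Among the other 31 genes PTN was highest for 23 and the order BSN, HRG, PTN held for 16, against 28.3% and 12.1% of the measured genes that did not pass through 1 group alone. Desaturases and elongases gave another order: for 4 of 5 of them it was HRG, then BSN, then PTN. This order was found for 16.1% of all measured genes and for 7 of the 32 members, among them Mvd, Srebf1 and Srebf2. Both patterns stand in the heat map of the 9 arrays. The 3 comparisons share samples, so the counts below are not independent of each other.

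**Figure D1:**
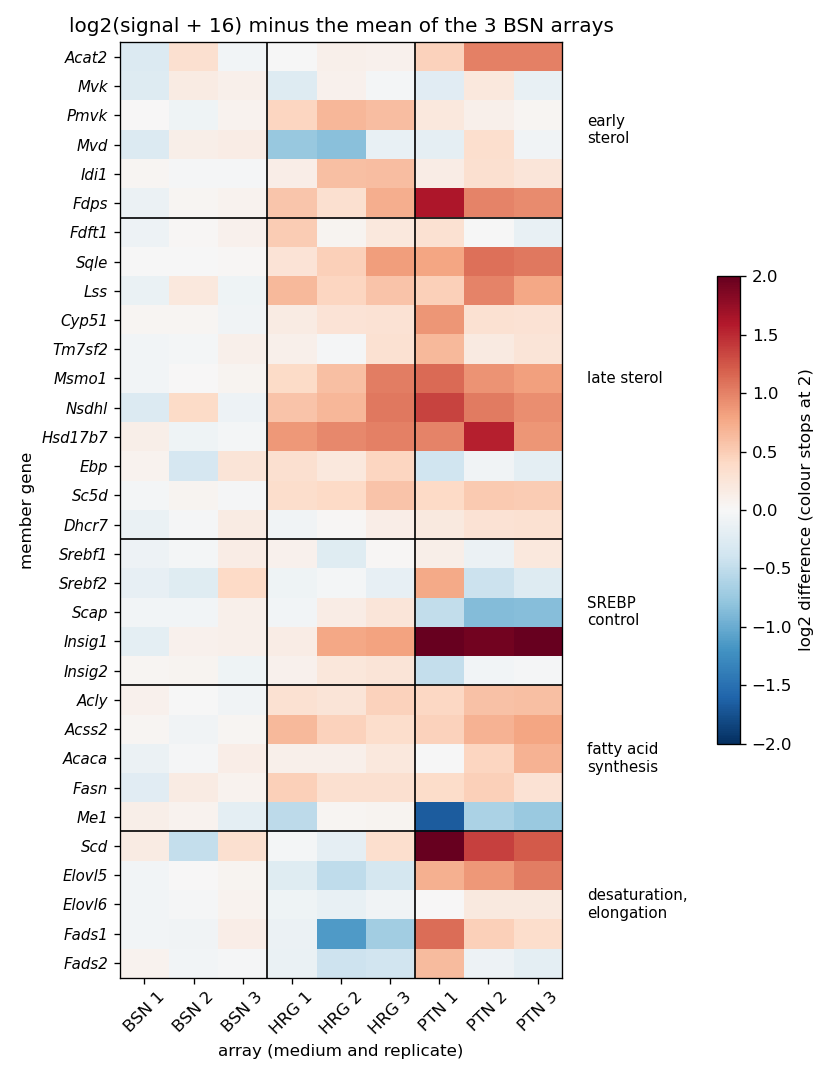
Heat map of the 32 member genes (rows, grouped by pathway step) on the 9 arrays (columns), coloured by log2(signal + 16) minus the mean of the 3 BSN arrays for that gene. Insig1 and Scd are deep red on the 3 PTN arrays, Scap and Me1 are blue on all 3, and Sqle, Lss, Msmo1, Nsdhl and Hsd17b7 are red on the HRG and PTN arrays.

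PTN against BSN gave the most calls. Of 32 genes 14 were higher in PTN, 2 were lower and 16 did not pass, where 9.08% of all measured genes were higher and 13.5% lower (a call is a limma adjusted p under 0.05 over the 10106 probe sets that passed the filter, and a gene is read by its brightest such probe set). The arrays of the groups did not overlap for 21 of the 32, against 38.5% of all measured genes. Scd was favoured by the filter in both counts. Without it and the other genes that passed through 1 group alone, 13 of 31 members were higher, 2 lower and 20 not overlapping, against 9.05%, 13.4% and 38.3% of 7395 genes. The median log2 difference was 0.37 for the 31 genes and -0.11 for those 7395. In HRG against BSN 9 genes were higher and none was lower, with 23 that did not pass, against 7.07% higher and 9.16% lower among all genes. By limma's unadjusted p 13 were higher and 3, Mvd, Elovl5 and Fads1, were lower. Their median was 0.22, against -0.04 for all genes, and 19 of the 32 did not overlap, against 37.5%. In HRG against PTN 4 genes were higher, 7 with Scd and 6 without it were lower and 21 did not pass, against 14.7% and 12.1% of all genes. The median was -0.22, against 0.08, and 14 of the 32 did not overlap, against 41.6%. Without Scd the median was -0.20 and 13 of 31 did not overlap. Some counts depended on single arrays. In HRG against BSN 3 genes were higher without BSN replicate 1, without BSN replicate 3 or without HRG replicate 3, 4 without HRG replicate 2 and 5 without BSN replicate 2. In HRG against PTN 1 gene was higher without HRG replicate 2 or without HRG replicate 3, and 2 without PTN replicate 3.

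These medians depend on the scaling, which was left as deposited. Centring each array on its median moved the median of all 10106 probe sets in PTN against BSN from -0.11 to 0.01, a shift of 0.13. Over all probe sets it turned the share of calls that were higher from 40.6% to 60.3% in PTN against BSN and from 54.7% to 43.2% in HRG against PTN. Of the member genes 17 were then higher and 2 lower in PTN than in BSN, so the members' direction there was the same. For the actin control the ratio of 3' to 5' signal, higher where RNA is weighted to the 3' end, was 33.2 ± 4.91 for BSN, 25.2 ± 5.87 for HRG and 16.6 ± 1.40 for PTN (n = 3, SD, exact two-sided permutation p = 0.1 for each comparison with PTN, the smallest possible, and 0.2 for HRG against BSN). The actin ratio ran in the reverse order of media from the 17 members whose mean signals rose from BSN to HRG to PTN. Those are not the same 17 as the members higher after median centring. The same ratio for the Gapdh control gave another order, 4.57 ± 1.11 for BSN, 2.92 ± 0.802 for HRG and 5.14 ± 1.98 for PTN (exact permutation p = 0.8 between PTN and BSN, 0.1 between HRG and BSN, and 0.3 between HRG and PTN). The part of RNA quality in the results was not tested. PTN replicate 1 was the array least like its group, with a mean correlation of 0.946 with the other PTN arrays over probe sets, where the other 8 arrays had 0.962 to 0.976 with theirs.

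Of the ureteric epithelial markers 8 of 10 on the array passed the filter and 2, Hoxb7 and Calb1, did not. Marker sums below take the brightest probe set of each gene on the array, whether it passed or not. The ureteric sum was 140728 to 152014 in BSN, 139536 to 154459 in HRG and 119414 to 137182 in PTN. The list split. Ret, the GDNF receptor that marks ureteric tips, was at 11483, 15204 and 13848 in BSN, 1112, 851 and 790.1 in HRG and 19681, 18578 and 18009.6 in PTN, so HRG stood far below the others. Lhx1 was also lower in HRG than in both other media. Krt19 went the other way, at 2925 ± 660 in BSN, 10622 ± 600 in HRG and 2181 ± 96.3 in PTN. Krt8 and Krt18 were higher in HRG than in PTN and lower in PTN than in BSN. Cdh1, Epcam and Gata3 passed in no comparison. The metanephric mesenchyme markers on the array, Wt1 and Gdnf, did not pass the filter. Neuron markers, 5 of 6 of which passed, summed to 8359.8 to 10051 in BSN, 3336 to 4470.2 in HRG and 7104 to 8865 in PTN. Stroma markers (4 of 7 passed) summed to 4478 to 4775 in BSN, 2885 to 4258 in HRG and 4187 to 4444 in PTN. Of the lipid-rich cell types, 1 of 4 adipocyte markers passed, Lpl, and Plin1, Fabp4 and Lep did not. The adipocyte sum was 1044 to 1256 in BSN, 2139 to 2701 in HRG and 753 to 987 in PTN. Of 6 hepatocyte markers Ttr and Cyp7a1 passed while Alb, Afp, Apoa1 and Tat did not, and the sum was 1694 to 3013 in BSN, 2073 to 2321 in HRG and 1772 to 2005 in PTN. Blood and macrophage markers (1 of 6 passed) summed to 2552 to 2935 in BSN, 2243 to 2288 in HRG and 1707 to 2541 in PTN, and endothelial markers (1 of 3 passed) to 1036 to 1068, 547 to 797 and 942 to 1302. The part of any other cell type in the results was not tested, and in whole buds fewer cells of a type and less RNA per cell cannot be told apart.

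Among the genes that control sterol synthesis, Insig1 was higher and Scap lower in PTN than in BSN, and the other 3 did not pass. Insig1 (probe set 1367894_at), which retains Scap in the endoplasmic reticulum, had signals of 4384.5, 5349.6 and 5382 in BSN, 5573, 8611.5 and 8731 in HRG and 22738, 19126 and 20485 in PTN. The 3 groups did not overlap, although HRG replicate 1 lay just above the BSN range. Insig1 was 4.12-fold higher in PTN than in BSN (log2 difference 2.04 ± 0.175 SE, adjusted p = 1.59e-05; fold changes throughout are on the log2(signal + 16) scale). It was 2.77-fold lower in HRG than in PTN (adjusted p = 6.29e-05). The rise from BSN to HRG was smaller, 1.49-fold at an adjusted p of 0.0419. That smaller call was lost with no filter (0.066) and with no intensity trend (0.0642), and the adjusted p was 0.15 without BSN replicate 1, 0.0787 without BSN replicate 2, 0.0752 without BSN replicate 3, 0.171 without HRG replicate 2, 0.176 without HRG replicate 3 and 0.0543 without PTN replicate 3.

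Scap (probe set 1389567_at), the escort protein of the SREBPs, went the other way in PTN. Its signals were 3403, 3426 and 3819 in BSN, 3425, 3934.5 and 4186.5 in HRG and 2514, 1943 and 1958.5 in PTN, so that all 3 PTN arrays lay below the other 6. Scap was 1.66-fold lower in PTN than in BSN (log2 difference -0.74 ± 0.145 SE, adjusted p = 0.00381) and 1.8-fold higher in HRG than in PTN (adjusted p = 0.000983). HRG and BSN overlapped, with a log2 difference of 0.11 ± 0.145 SE and a 95% interval of -0.20 to 0.43.

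The transcripts of the SREBPs themselves did not pass in any comparison. Srebf2, which encodes the SREBP most tied to sterol genes, was at 2350.2 ± 597 in BSN, 2158 ± 97.8 in HRG and 2524 ± 1216 in PTN (n = 3 arrays, SD). PTN replicate 1 alone was at 3922, against 1715 and 1934 on the other PTN arrays. The 95% interval for PTN against BSN was -0.54 to 0.60 on the log2 scale. Srebf1 was at 3685 ± 332, 3572 ± 428 and 3888 ± 441 in the same order, with an interval of -0.24 to 0.39 for PTN against BSN. A second, dimmer Srebf1 probe set did not pass either and had its lowest mean in PTN, 853 ± 234. Insig2, the second retention protein, was at 2808 ± 159 in BSN, 3209.5 ± 194 in HRG and 2495 ± 422 in PTN, with adjusted p of 0.394 for PTN against BSN and 0.0812 for HRG against PTN. Its PTN mean was below its BSN mean, whereas that of Insig1 was above, and the contrast between the genes was not tested.

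**Figure D2:**
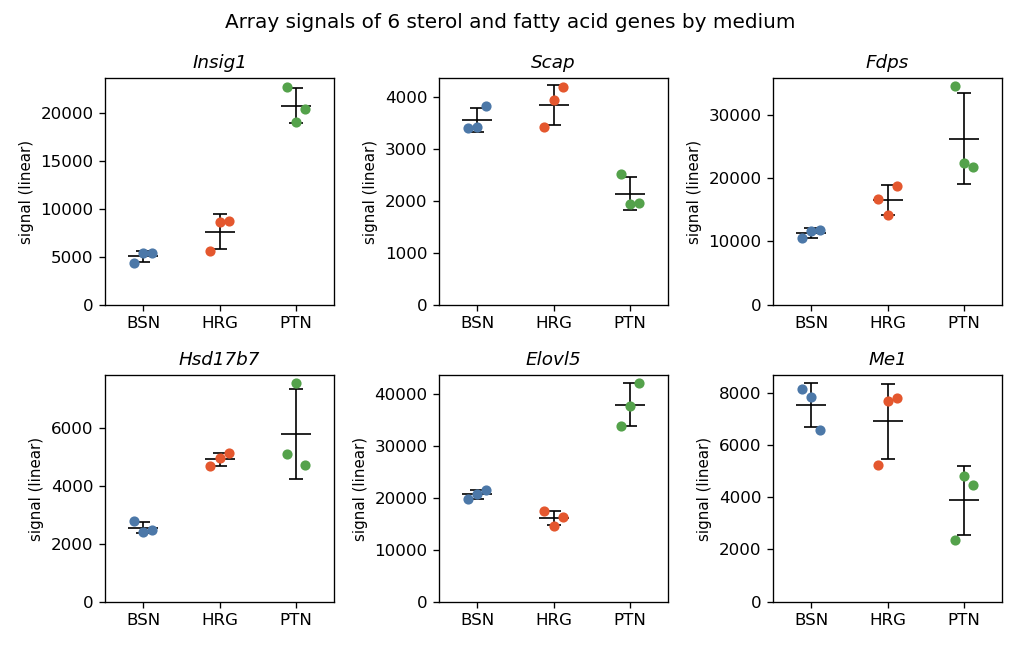
Deposited linear signals (y axes, each from 0) of 6 member genes on each array (points), with the mean (long bar) and SD (whiskers) of the 3 arrays per medium. Insig1 and Elovl5 are highest and Scap and Me1 lowest on all 3 PTN arrays, and for Fdps PTN replicate 1 lies well above the other PTN arrays.

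The early steps toward isoprenoids differed from one another. Acat2 (probe set 1372462_at), the cytosolic thiolase that joins acetyl-CoA units, and Fdps (probe set 1367667_at), which makes farnesyl diphosphate at the end of the early arm, were the early genes that rose in PTN. Acat2 had signals of 3213, 4848 and 3731 in BSN, 3849, 4161.5 and 4103 in HRG and 5344, 7817 and 7843 in PTN. HRG lay within the range of BSN, and PTN was above both, 1.78-fold over BSN (adjusted p = 0.00675) and 1.71-fold over HRG (adjusted p = 0.00773). Fdps had signals of 10483, 11684 and 11869 in BSN, 16727.5, 14209 and 18835 in HRG and 34664, 22504 and 21831 in PTN, where no group overlapped another. It was 2.27-fold higher in PTN than in BSN (log2 difference 1.18 ± 0.174 SE, adjusted p = 0.00067) and 1.56-fold lower in HRG than in PTN (adjusted p = 0.0166, and 0.0737 without HRG replicate 2). HRG was above BSN at an adjusted p of 0.0536, which passed without PTN replicate 1 (0.00566) and after median centring (0.0297).

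Pmvk (probe set 1373243_at), the phosphomevalonate kinase, rose in HRG. Its signals were 3442, 3245.5 and 3612 in BSN, 4604, 5459 and 5259 in HRG and 3987, 3677 and 3531 in PTN, and the HRG arrays stood above all others. It was 1.48-fold higher in HRG than in BSN (adjusted p = 0.00864), and of the 9 calls in that comparison it was the one that held under all 20 alternatives. Against PTN it was 1.37-fold higher (adjusted p = 0.0207), with 0.0509 after median centring and 0.0835 without HRG replicate 2, 0.0744 without HRG replicate 3, 0.056 without PTN replicate 2 and 0.0683 without PTN replicate 3.

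Idi1, which isomerises isopentenyl diphosphate, gave different calls on its 2 probe sets. The brighter had signals of 3986, 3839 and 3847 in BSN, 4250.2, 5894 and 5982 in HRG and 4294, 4884 and 4619 in PTN and did not pass (adjusted p = 0.0599 for HRG against BSN and 0.265 for PTN against BSN). The first of these passed without HRG replicate 1 (0.012) or PTN replicate 1 (0.0346). The dimmer had 2523, 1427 and 1951 in BSN, 3535, 3931 and 4468 in HRG and 3209.5, 4092 and 3191 in PTN, and was 2.06-fold higher in HRG and 1.81-fold higher in PTN than in BSN (adjusted p = 0.00273 and 0.00838). With the mean of both probe sets Idi1 was higher in HRG (0.00586) and in PTN (0.0253) than in BSN. On both probe sets every HRG and PTN array lay above every BSN array. Mvk, the mevalonate kinase, overlapped in all 3 comparisons at 1138 ± 174, 1078 ± 126 and 1098 ± 183 in BSN, HRG and PTN. Mvd, the mevalonate diphosphate decarboxylase, was dim at 775 ± 121, 521 ± 150 and 793 ± 158 and did not pass, although HRG against PTN did so without HRG replicate 3 (0.0475).

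Most late sterol enzymes rose in PTN. In PTN against BSN 7 of 11 of them were higher and none was lower (by unadjusted p 8 higher and none lower), with a median log2 difference of 0.50, and 2 of 6 early enzymes were higher, with a median of 0.18. Of all measured genes 9.08% were higher and 13.5% lower there, with a median of -0.11. In HRG against BSN 6 of 11 late enzymes were higher and none was lower (by unadjusted p also 6 and none), with a median of 0.44, and 1 of 6 early ones was higher, with a median of 0.25. Over all measured genes the shares were 7.07% higher and 9.16% lower, and the median was -0.04. The late count fell to 1 without HRG replicate 3, to 2 without BSN replicate 1 or without BSN replicate 3, and to 3 without HRG replicate 2. The early count rose to 2 without HRG replicate 1 and to 3 without PTN replicate 1. The counts also depended on reading each gene by its brightest probe set. With the mean of all kept probe sets, the late genes Hsd17b7 (adjusted p = 0.0565) and Sc5d (0.746) were lost in HRG against BSN. The early gene Idi1 then passed (0.00586). In PTN against BSN the same averaging lost Sc5d (0.0688) and gained Idi1 (0.0253). All 11 late differences between HRG and BSN were above 0. Between HRG and PTN 1 of 11 late enzymes was higher in HRG and 1 lower, against 14.7% and 12.1% of all measured genes. The late median was -0.24, against 0.08 for all genes. Both late calls depended on single arrays as given for Ebp and Sqle. Of 6 early enzymes 1 was higher in HRG than in PTN and 2 were lower, with a median of -0.31. Among these, the calls of Pmvk and Fdps also depended on single arrays, as given above. The difference between early and late steps was not tested.

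Hsd17b7 (probe set 1389430_at), the sterol 3-ketoreductase, showed the largest late difference between HRG and BSN. It had signals of 2782, 2401 and 2490 in BSN, 4680.3, 4969 and 5131 in HRG and 5099.8, 7568 and 4729 in PTN. Every HRG and PTN array was above every BSN array, and HRG and PTN overlapped. It was 1.92-fold higher in HRG (adjusted p = 0.00204) and 2.21-fold higher in PTN (adjusted p = 0.000667). A dimmer probe set of the gene overlapped throughout, at 1280 ± 42.4, 1184 ± 91.9 and 1456 ± 324, and with the mean of both probe sets the HRG call was lost (adjusted p = 0.0565).

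Msmo1 and Nsdhl, which take part in removing the methyl groups at carbon 4 of the sterol ring, both rose in PTN and in HRG. Msmo1 (probe set 1368275_at) had signals of 11018, 11571 and 11929.7 in BSN, 14970.1, 17453 and 23478 in HRG and 25349, 21536 and 20214 in PTN. It was 1.93-fold higher in PTN than in BSN (adjusted p = 0.00141), and HRG replicate 3 reached the PTN range, so HRG and PTN overlapped (adjusted p = 0.219, and 0.0489 without that array). The HRG rise over BSN had an adjusted p of 0.0118, and 0.0578 without HRG replicate 3. Nsdhl (probe set 1392604_at) had signals of 704, 1119.8 and 800 in BSN, 1279.9, 1364 and 1795 in HRG and 2215, 1773 and 1656 in PTN. It was 2.15-fold higher in PTN than in BSN (adjusted p = 0.00244). Its rise in HRG, at an adjusted p of 0.0218, was lost at 0.0944 without BSN replicate 1, 0.0782 without BSN replicate 3 and 0.113 without HRG replicate 3.

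Sqle (probe set 1387017_at), the squalene epoxidase and a flux-controlling step, was the late enzyme that passed in all 3 comparisons. Its signals were 6275, 6229 and 6383 in BSN, 7586, 8792 and 11197 in HRG and 10892, 13514 and 13042 in PTN. BSN lay below all others, and HRG replicate 3 overlapped PTN. It was 1.97-fold higher in PTN than in BSN (adjusted p = 0.000948). The other calls were weaker: HRG against BSN, 1.44-fold higher, had an adjusted p of 0.0336, which became 0.0531 with no intensity trend and 0.086 without BSN replicate 1, 0.095 without BSN replicate 2, 0.0846 without BSN replicate 3, 0.08 without HRG replicate 2 and 0.166 without HRG replicate 3. HRG against PTN, 1.37-fold lower, had an adjusted p of 0.045. It was lost after quantile normalization (0.0647), with no filter (0.0612), with no intensity trend (0.0647) and with only the arrays compared (0.086), and was 0.0619 without BSN replicate 1, 0.0609 without BSN replicate 2, 0.0606 without BSN replicate 3, 0.179 without HRG replicate 1, 0.118 without HRG replicate 2, 0.13 without PTN replicate 2 and 0.118 without PTN replicate 3.

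Lss (probe set 1372973_at), the lanosterol synthase, had signals of 2211, 2789.9 and 2282 in BSN, 3812, 3276 and 3581 in HRG and 3384, 4841 and 4119 in PTN. It was 1.68-fold higher in PTN than in BSN (adjusted p = 0.0054) and 1.47-fold higher in HRG (adjusted p = 0.0311, and 0.112 without BSN replicate 1, 0.107 without BSN replicate 3, 0.0961 without HRG replicate 1, 0.0557 without HRG replicate 2 and 0.0947 without HRG replicate 3). Sc5d (probe set 1389111_at), the lathosterol desaturase, had signals of 5514, 5913 and 5578 in BSN, 7243, 7486 and 8395 in HRG and 7442, 8109 and 8086 in PTN. HRG and PTN overlapped and both lay above BSN, by 1.36-fold (adjusted p = 0.025) and 1.39-fold (adjusted p = 0.014). Its dimmer probe set, at 1089 ± 82.2, 949 ± 319 and 1386 ± 99.2, did not pass, and with the mean of both probe sets both calls were lost (adjusted p = 0.746 and 0.0688). The HRG call was also lost at 0.0799 without BSN replicate 1, 0.052 without BSN replicate 2, 0.0815 without BSN replicate 3, 0.0679 without HRG replicate 2 and 0.125 without HRG replicate 3, and the PTN call at 0.0521 without BSN replicate 3.

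Cyp51 (probe set 1367979_s_at), the lanosterol 14-demethylase, rose in PTN on both of its probe sets by unequal amounts. The brighter had signals of 14382, 14347 and 13263 in BSN, 15753, 16841 and 17064 in HRG and 25763, 17362 and 17148 in PTN, a rise of 1.41-fold over BSN (adjusted p = 0.0339). The dimmer had 1495, 1246 and 1695 in BSN, 2338, 2196 and 1884 in HRG and 4506, 2622 and 2908 in PTN, a rise of 2.2-fold (adjusted p = 0.00179). PTN replicate 1 was the highest array on both. The brighter probe set's call was lost after quantile normalization (0.138), with no filter (0.0582), with no intensity trend (0.056), with only the arrays compared (0.0674) and at 0.0732 without BSN replicate 1, 0.0712 without BSN replicate 2 and 0.113 without BSN replicate 3. Between HRG and PTN the dimmer probe set was 1.52-fold lower in HRG (adjusted p = 0.04) and the brighter did not pass (0.248).

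The remaining late enzymes were flatter. Ebp (probe set 1386990_at), the sterol isomerase that acts before Sc5d, departed from its neighbours, with its lowest mean in PTN. Its signals were 1212, 914 and 1383 in BSN, 1445, 1332 and 1557.5 in HRG and 872, 1095 and 999.7 in PTN, and it was 1.46-fold higher in HRG than in PTN (adjusted p = 0.0417). That call was lost after quantile normalization (0.0921), after median centring (0.0796), with no filter (0.0777) and at 0.058 without BSN replicate 1, 0.102 without HRG replicate 1, 0.067 without HRG replicate 2, 0.137 without HRG replicate 3, 0.0812 without PTN replicate 1 and 0.0811 without PTN replicate 3. Fdft1, the squalene synthase that opens the late arm, was at 2324 ± 147, 2804 ± 458 and 2431 ± 402 in BSN, HRG and PTN on its brighter probe set. Neither this nor its dimmer probe set passed in any comparison, though on the dimmer every HRG and PTN array lay above every BSN array. Tm7sf2, a sterol C14 reductase, was at 2304 ± 141, 2529 ± 291 and 3002 ± 553, with an adjusted p of 0.107 for PTN against BSN, 0.0392 after quantile normalization and 0.0286 after median centring. Dhcr7, which carries out the last reduction to cholesterol, was at 4779.7 ± 514, 4853 ± 333 and 5725 ± 252. All 3 of its PTN arrays lay above the 6 others, but by 1.2-fold only (adjusted p = 0.161).

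**Figure D3:**
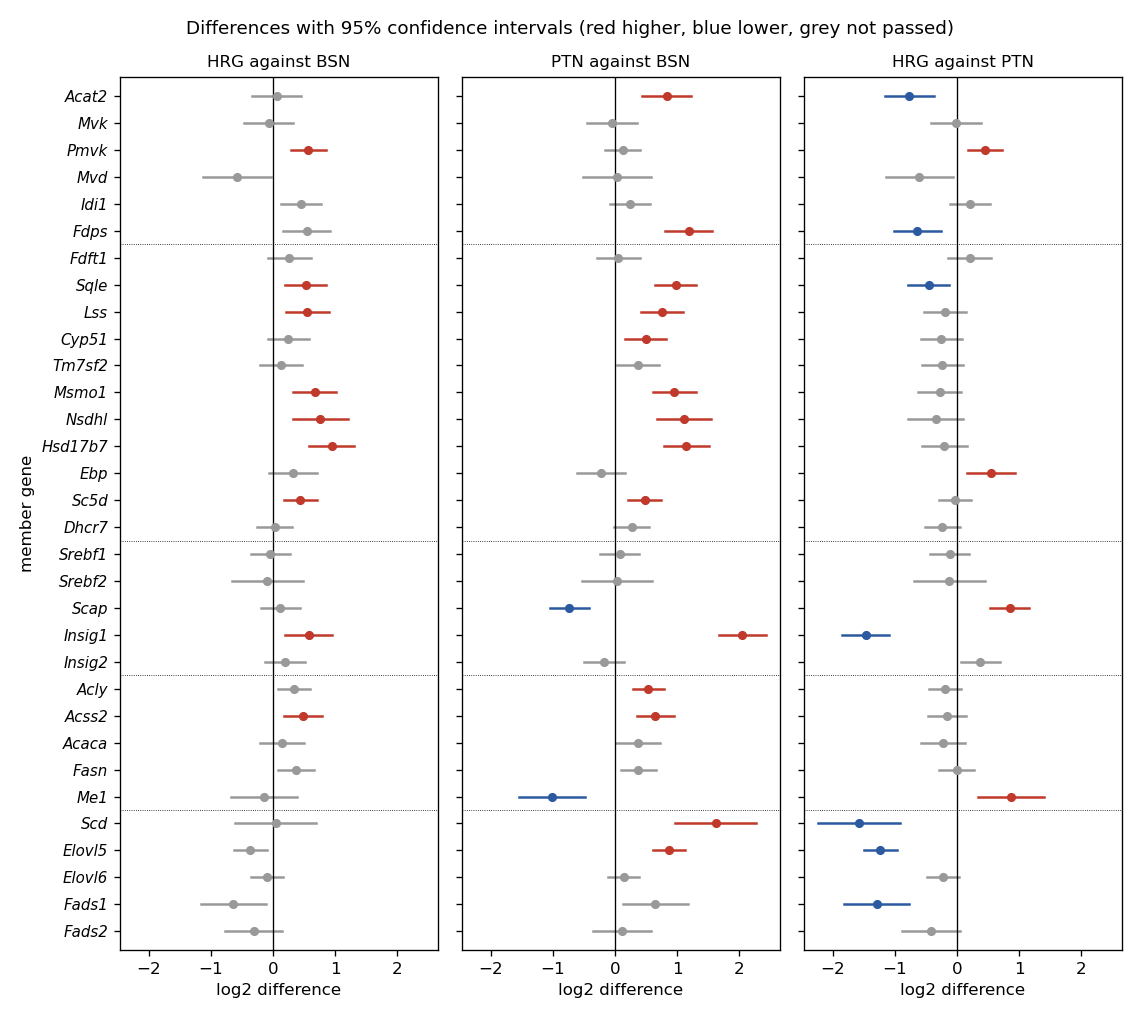
Log2 differences of the 32 member genes (points) with 95% confidence intervals (bars) for HRG against BSN, PTN against BSN and HRG against PTN, in red where higher, blue where lower and grey where the adjusted p was not under 0.05. The interval of Insig1 in PTN against BSN runs from 1.66 to 2.42, above that of every sterol enzyme, and the HRG against PTN panel has its blue points among Acat2, Fdps, Sqle, Insig1, Scd, Elovl5 and Fads1.

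Of the 5 genes that supply and build fatty acids, 2 were higher and 1 lower in PTN than in BSN, against 9.08% and 13.5% of all measured genes. Of the 5, 1 was higher in HRG than in BSN, against 7.07%, and 1 was higher in HRG than in PTN, against 14.7%. Acss2 (probe set 1375944_at), which makes acetyl-CoA from acetate, had signals of 1742, 1613 and 1748 in BSN, 2669, 2356 and 2162 in HRG and 2336, 2776 and 2945 in PTN. HRG and PTN overlapped and both lay above BSN, by 1.4-fold (adjusted p = 0.0331) and 1.57-fold (adjusted p = 0.00631), and the HRG call was lost at 0.0738 without BSN replicate 1, 0.107 without BSN replicate 2, 0.0753 without BSN replicate 3, 0.113 without HRG replicate 1 and 0.0868 without HRG replicate 2. Acly (probe set 1367854_at), which makes cytosolic acetyl-CoA from citrate, had signals of 13465, 12569.8 and 12116 in BSN, 15671, 15167 and 17447 in HRG and 16962, 19001 and 19378 in PTN. It was 1.45-fold higher in PTN than in BSN (adjusted p = 0.00656), and HRG, also above every BSN array, had an adjusted p of 0.0709, which passed without PTN replicate 1 (0.0304).

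The enzymes of the synthesis itself passed in no comparison. Fasn, the fatty acid synthase, was at 11509 ± 1560 in BSN, 14800 ± 928 in HRG and 14861 ± 1020.1 in PTN (n = 3 arrays, SD), with adjusted p of 0.0781 and 0.0569 against BSN. After median centring these were 0.0491 and 0.0171, and the first was 0.0473 without PTN replicate 1. Acaca, the acetyl-CoA carboxylase that commits carbon to fatty acids, was at 7966 ± 672, 8767 ± 356 and 10498 ± 2514. Its PTN arrays spread from 7888 to 12904, PTN replicate 1 being lowest, and without that array PTN was higher than both BSN (adjusted p = 0.00665) and HRG (0.0255).

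Me1 (probe set 1370870_at), the cytosolic malic enzyme that supplies NADPH, ran against the other genes of this group. Its signals were 8152, 7854 and 6581 in BSN, 5226.5, 7687 and 7787 in HRG and 2366, 4816 and 4468 in PTN, so that all 3 PTN arrays were below the other 6, PTN replicate 1 the furthest. It was 2.02-fold lower in PTN than in BSN (log2 difference -1.01 ± 0.244 SE, adjusted p = 0.0108) and 1.83-fold higher in HRG than in PTN (adjusted p = 0.0195, and 0.0724 without HRG replicate 2 and 0.0766 without HRG replicate 3). Its second probe set passed both times in the same directions (adjusted p = 0.00306 and 0.0374).

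Of the 5 desaturation and elongation genes, Elovl5 and Fads1 were lower in HRG than in PTN, Fads2 and Elovl6 did not pass, and Scd entered the test through PTN alone and is given below by its signals. None of the 5 passed in HRG against BSN by limma (by its unadjusted p, 2 were lower and none higher). By adjusted p, the shares over all measured genes in that comparison were 7.07% higher and 9.16% lower. For HRG against PTN the shares were 14.7% and 12.1%. With only 5 genes, a count of none says little beside such shares. Elovl5 (probe set 1388348_at), an elongase of polyunsaturated fatty acids, had signals of 19803.5, 20641 and 21443 in BSN, 17345, 14557 and 16220.1 in HRG and 33836, 37646 and 42131 in PTN. The groups did not overlap, with HRG lowest. Elovl5 was 2.36-fold lower in HRG than in PTN (log2 difference -1.24 ± 0.120 SE, adjusted p = 1.24e-05) and 1.83-fold higher in PTN than in BSN (adjusted p = 0.000429). HRG against BSN had an adjusted p of 0.0579, and passed after quantile normalization (0.0203) and without PTN replicate 1 (0.0224).

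Fads1 (probe set 1367857_at), the delta-5 desaturase of the same pathway, had signals of 5773.5, 5719 and 6603 in BSN, 5556, 2750.1 and 3718.5 in HRG and 13031, 8367.5 and 7698 in PTN. HRG and BSN did not overlap, but HRG replicate 1 lay close to BSN. Fads1 was 2.45-fold lower in HRG than in PTN (adjusted p = 0.00185). Against BSN neither HRG (0.0959) nor PTN (0.0718) passed. Without HRG replicate 1 both did (0.0211 and 0.0388), and without PTN replicate 1 the first did (0.035). Scd (probe set 1370355_at), a stearoyl-CoA desaturase, was below the 40th percentile of its array on all BSN and HRG arrays and above it only in PTN. Its signals were 527, 332 and 587 in BSN, 456, 412 and 595 in HRG and 2297, 1235 and 1119.6 in PTN, and no fold is given.

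Fads2, the delta-6 desaturase, was at 1117 ± 48.3 in BSN, 900 ± 98.7 in HRG and 1249 ± 428 in PTN, passing in no comparison. PTN replicate 1 alone was above the others, at 1742 against 1037 and 969. HRG against PTN passed after quantile normalization (0.0485). Elovl6, which elongates saturated fatty acids, was at 7489.6 ± 359, 7003 ± 204 and 8236 ± 591. The 95% interval of its log2 difference was -0.49 to 0.03 for HRG against PTN.

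Other genes of lipid uptake, export and use were read from lists of 72 genes, of which 56 were on the array and 44 passed the filter. Over these 44 genes 10 were higher and 3 lower in PTN than in BSN, 8 higher and 1 lower in HRG than in BSN, and 11 higher and 6 lower in HRG than in PTN. Of all measured genes 9.08%, 7.07% and 14.7% were higher and 13.5%, 9.16% and 12.1% lower, in the same order of comparisons. The median log2 differences of the 44 were -0.02, 0.12 and 0.12, against -0.11, -0.04 and 0.08 for all genes. Without BSN replicate 3, 6 were higher in PTN than in BSN, and without PTN replicate 1, 7 were lower. In HRG against BSN 5 were higher without HRG replicate 2 or without HRG replicate 3. The 1 lower, Scarb1, was lost as given with its values, and 3 were lower without PTN replicate 1. In HRG against PTN the 11 higher became 5 without HRG replicate 1, 6 without HRG replicate 2, 7 without HRG replicate 3 and 6 after median centring.

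Vldlr and Lrp8, receptors of the lipoprotein receptor family, were highest in PTN on their brightest probe sets. Of 7 measured genes of uptake and storage 2 were higher in PTN than in BSN and 1 was lower, against 9.08% and 13.5% of all measured genes. In HRG against PTN 3 of the 7 were lower and 1 higher, against 12.1% and 14.7%. Vldlr, the very low density lipoprotein receptor, had signals of 5852, 7045.5 and 5457 in BSN, 5016, 5033 and 5896 in HRG and 10471.5, 11638 and 13069.8 in PTN. It was 1.92-fold higher in PTN than in BSN (adjusted p = 0.000842) and 2.2-fold lower in HRG than in PTN (adjusted p = 9.68e-05), and a second probe set passed in both. The dimmest one did not pass in either (adjusted p = 0.322 and 0.451). Lrp8, a related receptor for apolipoprotein E and reelin, had signals of 3909, 5056 and 3927 in BSN, 4975.5, 3366 and 3222 in HRG and 10331, 7526 and 7521 in PTN, 1.96-fold above BSN (adjusted p = 0.00397) and 2.21-fold above HRG (adjusted p = 0.000902). Every PTN array was above every other array for both receptors, each read by its brightest probe set.

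Mylip, a ubiquitin ligase that degrades these receptors and is a target of the sterol sensor LXR, was also highest in PTN. Its signals were 4895, 4213 and 4338 in BSN, 4857, 5006 and 4012 in HRG and 9579, 7433.5 and 7923 in PTN, with PTN 1.84-fold above BSN (adjusted p = 0.0013) and 1.79-fold above HRG (adjusted p = 0.00103). It was the only one of 3 measured LXR and efflux genes to pass. Npc2, which moves cholesterol out of lysosomes, was lower in PTN (18334 ± 3039.5) than in BSN (27266 ± 2549.9, adjusted p = 0.0112, and 0.0553 without BSN replicate 3). Lipa, the lysosomal acid lipase, was higher in HRG (7263 ± 570) than in PTN (5419.7 ± 560, adjusted p = 0.0452), a call that 12 of 20 alternatives ended, with 0.0597 without BSN replicate 1, 0.0504 without BSN replicate 2, 0.0976 without HRG replicate 1, 0.0669 without HRG replicate 2, 0.156 without HRG replicate 3, 0.084 without PTN replicate 1 and 0.0829 without PTN replicate 2. Scarb1, a lipoprotein receptor for selective uptake, was dim and lower in HRG (461 ± 55.3) than in PTN (843 ± 234, adjusted p = 0.0214) or BSN (782 ± 49.9, adjusted p = 0.0475). The call against PTN was lost at 0.0589 without HRG replicate 2, 0.0738 without HRG replicate 3 and 0.0559 without PTN replicate 1. The call against BSN was lost after quantile normalization (0.0678), with no filter (0.0734) and at 0.103 without BSN replicate 1, 0.1 without BSN replicate 2, 0.142 without BSN replicate 3, 0.0591 without HRG replicate 1, 0.124 without HRG replicate 2, 0.153 without HRG replicate 3 and 0.0604 without PTN replicate 3.

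Of 9 measured genes that process SREBPs or degrade their partners, Mbtps2, the site-2 protease that releases SREBPs, was 1.62-fold higher in HRG (6679.6 ± 453) than in BSN (4117 ± 83.9, adjusted p = 0.00858). Erlin1, which binds the SREBP, Scap and Insig complex, was higher in PTN (5364 ± 96.3) than in BSN (3828 ± 320, adjusted p = 0.0271) or HRG (3714 ± 571, adjusted p = 0.0139). The first call was lost at 0.0723 without BSN replicate 2, 0.101 without BSN replicate 3, 0.0612 without PTN replicate 2 and 0.0735 without PTN replicate 3, and the second at 0.0744 without HRG replicate 3. Rnf139, a ubiquitin ligase of the endoplasmic reticulum, was higher in HRG (4682 ± 152) than in PTN (3266 ± 656, adjusted p = 0.0232), a call lost after median centring (0.0675) and at 0.0514 without HRG replicate 1, 0.0722 without HRG replicate 2 and 0.0669 without HRG replicate 3.

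Of 7 measured genes of isoprenoid use and sterol binding, Osbp, an oxysterol-binding protein, was higher in HRG (4923 ± 342) and in PTN (4944 ± 60.4) than in BSN (3303 ± 765, adjusted p = 0.0208 and 0.0157). The HRG call was lost at 0.0812 without BSN replicate 1, 0.101 without BSN replicate 3, 0.0731 without HRG replicate 1, 0.0573 without HRG replicate 2 and 0.0517 without HRG replicate 3, and the PTN call at 0.0623 without BSN replicate 1 and 0.0789 without BSN replicate 3. Pggt1b, a subunit of the enzyme that attaches geranylgeranyl groups to proteins, was higher in HRG (2889 ± 589) than in PTN (1739 ± 694, adjusted p = 0.0338), but 10 of 20 alternatives ended that call, 4 of them by leaving out HRG replicate 2 (0.128), HRG replicate 3 (0.0713), PTN replicate 1 (0.0828) or PTN replicate 3 (0.0732).

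Among 18 measured genes of fatty acid and glycerolipid metabolism, 5 were higher and 2 lower in PTN than in BSN, against 9.08% and 13.5% of all measured genes. In HRG against BSN 6 were higher and none lower (by unadjusted p also 6 and none), against 7.07% and 9.16%. In HRG against PTN 8 were higher and 1 lower, against 14.7% and 12.1%. The 8 became 4 without HRG replicate 1. The 5 became 3 without BSN replicate 1, BSN replicate 3, PTN replicate 2 or PTN replicate 3, and the 2 lower became 4 without PTN replicate 1 and 1 without any other array of BSN or PTN. Scd2, a second stearoyl-CoA desaturase, had signals of 21919.9, 26008 and 22668 in BSN, 21699, 26999 and 24794 in HRG and 49073, 44797 and 50670.2 in PTN, 2.05-fold above BSN (adjusted p = 0.000147) and 1.97-fold above HRG (adjusted p = 7.84e-05, and 0.107 with the mean of its probe sets). Every PTN array was above the other 6 on this probe set, its brightest. Its other 2 probe sets passed in no comparison (adjusted p = 0.281 and 0.824 for PTN against BSN, and 0.984 and 0.956 for HRG against PTN). Acsl3, an acyl-CoA synthetase, was 1.64-fold higher in PTN than in BSN (adjusted p = 0.00675).

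Slc25a1, the mitochondrial citrate carrier that feeds Acly, ran opposite to Acly in PTN. Its signals were 6261, 7281 and 7707 in BSN, 12299, 10318 and 14322 in HRG and 3438, 3206 and 3565 in PTN, and the 3 groups did not overlap. It was 3.58-fold higher in HRG than in PTN (adjusted p = 2.64e-06), 1.73-fold higher in HRG than in BSN (adjusted p = 0.00256) and 2.07-fold lower in PTN than in BSN (adjusted p = 0.000467). Dgat2, which makes triglycerides for storage, was highest in HRG, at 4900.4, 5254 and 5255, against 2134, 2228 and 3108 in BSN and 2236, 2151 and 2044 in PTN, 2.08-fold and 2.39-fold higher (adjusted p = 0.000433 and 7.17e-05). Pcyt1a, the controlling enzyme of phosphatidylcholine synthesis, was 1.8-fold higher in HRG than in BSN (adjusted p = 0.000484). The adipocyte sum was higher in HRG through Lpl alone. Lpl, the lipoprotein lipase, passed the filter through its HRG arrays alone, with signals of 557, 485 and 468 in BSN, 1724, 2183 and 1662 in HRG and 431.5, 422 and 299 in PTN. The other adipocyte markers did not pass the filter and had lower means in HRG than in BSN, 405 ± 7.09 against 552 ± 131 for Plin1, 34 ± 27.6 against 41.7 ± 39.3 for Fabp4 and 52.4 ± 10.4 against 57.9 ± 22.5 for Lep.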

How the data were processed

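Expression was measured on 9 rat arrays, 3 per medium. The deposited values are linear signal intensities made with GCOS, per the submitters' processing notes, with settings not stated in those notes or the labels. Their trimmed mean was 2500.48 to 2500.58 on every array, and no scaling was added. RNA was amplified by double in vitro transcription, per the labels' protocols.

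Of 15923 probe sets 57 controls were set aside, and the 10106 above their array's 40th percentile (580 to 788) on at least 3 arrays were tested in R 4.3.3 with limma 3.58.1 on log2(signal + 16), all 9 arrays in one fit with an intensity trend and 12.74 degrees of freedom after moderation. Adjusted p is Benjamini-Hochberg over all 10106, and 0.05 the threshold. Symbols are those of the platform table, and those of all member probe sets matched RefSeq by Entrez ID. All measured members may be named, and of other pathway genes those with the highest and lowest moderated t that passed. Members and lists were chosen with earlier results of these data known. Same-numbered HRG and PTN arrays deviated together (correlations 0.118 to 0.332), but no label pairs them. The reported fit therefore took all arrays as unpaired, and the replicate block was run only as an alternative. The replicate block changed no member call in HRG against PTN. The fit was also run on simulated data with changes planted in the PTN arrays only. In PTN against BSN it recovered 8% of planted log2 differences of 0.5 and 87% of those of 1. In HRG against PTN it recovered 11% and 86%. Fewer probe sets were changed there than were called in these data, so these shares need not hold here. The number of arrays limits the precision. Alternatives were quantile and median scaling, other pseudocounts and filters, no intensity trend, array weights, only the arrays compared, the replicate block, averaging the probe sets of each gene, and each array left out. Figures used Python 3.11.15 and matplotlib 3.10.9.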

Additional observations from a re-analysis of the deposited data

How the results depend on the processing

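Of the member calls, 13 of 16 in PTN against BSN, 5 of 11 in HRG against PTN and 1 of 9 in HRG against BSN were tried and held under all 20 alternatives, and no call of a member changed sign. Scd was tested in 16 of them, but it passed the filter through its PTN arrays alone. Its calls there cannot show stability. In HRG against BSN, the count of members lower, none as reported, was 1 after quantile normalization and with a filter at the 60th percentile, and 2 with array weights and with only the arrays compared. In HRG against PTN, the members higher, 4 as reported, were 2 after median centring. Array weights gave 2439 calls over all probe sets in HRG against BSN, against 1594, and 3480 in PTN against BSN, against 2276. Leaving out 1 array at a time gave 3 to 13 members higher and 0 to 2 lower in HRG against BSN, 1 to 4 higher and 5 to 9 lower in HRG against PTN, and 12 to 15 higher in PTN against BSN, with 1023 to 2216, 1826 to 3094 and 1345 to 3197 calls over all probe sets. Those over all probe sets fell furthest without HRG replicate 3 (1023), BSN replicate 3 (1051) or HRG replicate 2 (1056) in HRG against BSN, and without BSN replicate 3 (1345) in PTN against BSN. The number of arrays left is smaller in each of these, and the cause of the other moves was not tested. With the replicate block, 1 member was lower in HRG against BSN, Fads1 (adjusted p = 0.0417). Fdps was then higher there (0.049993), and Fads1 in PTN against BSN (0.0322). Of the 6 correlations of BSN arrays with the same-numbered arrays of the other groups (-0.097 to 0.13), only 1 was over 0.1.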
